A study of Drosophila melanogaster with 12 samples.

Results

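The elav family of Drosophila melanogaster comprises elav (FBgn0260400), found in neurons (fne, FBgn0086675) and Rbp9 (FBgn0010263). These genes were picked by name from a table of expression values, and all 3 members were found among its 15104 genes. All 3 also reached 1 FPKM (fragments per kilobase of transcript, scaled to the mapped fragments) in at least 1 group, as did 11181 genes in all. RNA came from adult heads of the 2202U background carrying 1 copy of UAS-GFP-L10A, which encodes a GFP-tagged protein of the large ribosomal subunit. The tag was driven by 1 copy of Elav-Gal4 for neurons, repo-Gal4 for glia or takeout-Gal4 for the fat body, the insect organ of storage and secretion, so that the tagged cells are those in which each driver is active. In each line 1000 heads were homogenised, nuclei were spun out and ribosomes were released by detergent. Part of this lysate gave the Input, and material bound by an antibody to GFP gave the immunoprecipitate (IP). The flies behind the Inputs therefore carried the driver and the tag too, and an Input held RNA from all cells of the head. Each of the 6 groups had 2 biological replicates, each a pool of 4 technical replicates, of polyadenylated RNA. The authors' deposited table holds 1 FPKM per gene and group, so no value has a standard deviation, no IP could be tested against an Input, and the sequencing depth is unknown. Where 3 values follow one another they are in the order neuron, glia, fat body.

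ELAV proteins carry 3 RNA recognition motifs and bind U-rich stretches of RNA. elav encodes a largely nuclear protein of postmitotic neurons that changes the splicing of neuronal transcripts and lets polyadenylation run on to distal sites. The protein made from fne is mainly cytoplasmic in neurons and can take over functions of elav when spliced to a nuclear form. Rbp9 is made in neurons of the adult brain and, in the ovary, in germ cells, where it represses the differentiation factor bam. The vertebrate Hu proteins are their relatives, and ELAV protein is a customary marker of fly neurons.

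The gene models of the family are long and vary mostly outside the coding region. In a later annotation than the one behind the values (Ensembl release 115, matched by gene identifier), elav lies on chromosome X and has 4 transcripts of 2248 to 10506 nt. Their 3′ untranslated region runs from 556 to 8557 nt, while the coding part gives proteins of 479 to 483 residues. fne, also on chromosome X, has 11 transcripts of 3937 to 8872 nt, with 3′ untranslated regions of 1202 to 4927 nt and proteins of 353 to 371 residues. Rbp9 on chromosome arm 2L has 9 transcripts of 3187 to 6976 nt, with 3′ untranslated regions of 730 to 5048 nt and proteins of 439 to 684 residues. An FPKM sums over all isoforms of a gene, so the long and the short forms are not separated in the values that follow. elav shares its locus with arg, the arginase gene, which lies on the opposite strand. It also overlaps lncRNA:enrr on its own strand by 10121 nt, a gene not analysed here. Overlaps here are of whole gene spans, introns included, and how much of them is exon was not measured. Whether the libraries kept the strand is not given in the sources used here. Reads of any exon stretch shared across strands therefore cannot be told apart, and on the same strand they could not be in any case. arg had 24.1, 34.4 and 27.5 FPKM in the Inputs and 9.33, 14.8 and 134 in the IPs. The high arg value in the fat body IP had no counterpart in elav, which stood at 1.88 FPKM there. Rbp9 overlaps Ts, the thymidylate synthase gene of the opposite strand, by 142 nt, and Ts had 0.904 to 9.97 FPKM over the 6 groups.

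The labelled cell types were checked with marker genes. The 20 neuron markers summed to 1374, 192 and 331 FPKM in the IPs, and on the deposited scale all 20 had more FPKM in the neuron IP than in the glia IP, 11 of them with q under 0.05 in the authors' deposited table. cpx, a regulator of synaptic vesicle release, has q = 1 in the authors' deposited table at 145 FPKM in the neuron and 37.9 in the glia IP. A q of 1, which may mark a gene without a test, stands for 2.04%, 2.10% and 1.66% of all genes in the 3 columns of the authors' deposited table (neuron against glia, neuron against fat body, glia against fat body) and for 0 members of the family. None of the neuron markers was listed at 0, the lowest value being 0.0622 FPKM for para, a sodium channel gene, with the glia driver. Glia markers summed to 1125, 3734 and 1610 FPKM in the IPs and fat body markers to 5801, 6623 and 52358. Against their own Inputs, 9 of 11 glia markers and 9 of 9 fat body markers were at least 2-fold higher in the IP, but 0 of 20 neuron markers were, and 14 of these were at least 2-fold lower (median log2 -2.38). The gene that names the glia driver, repo, had 11.2, 141 and 20.9 FPKM in the IPs. That of the fat body driver, to, had 9.57, 55.8 and 44.4. Its value was thus higher in the glia IP than in the fat body IP, against the label. That difference had q = 0.130 in the authors' deposited table, so it did not pass 0.05.

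Rbp9 was by far the most abundant member on the per-length scale of FPKM. Its level was 218, 146 and 151 FPKM in the Inputs, above that of 96.4%, 95.7% and 95.7% of the genes analysed. In the IPs its level was 34.4, 27.9 and 49.7 FPKM. elav, in contrast, stood in the middle of the genes, at 15.0, 5.97 and 7.55 FPKM in the Inputs, and had 3.48, 1.36 and 1.88 FPKM in the IPs. fne had 20.3, 7.09 and 8.82 FPKM in the Inputs, and 0.607, 0.186 and 0.476 in the IPs. For every member each of the 3 Input values lay above each of the 3 IP values. The order of the groups was the same for elav and fne, from the neuron Input down through the fat body Input, the glia Input, the neuron IP and the fat body IP to the glia IP. Rbp9 departed from it in 1 place, with the fat body IP above the neuron IP. Without values per replicate, it cannot be said which neighbours in these orders differ beyond their spread.

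**Figure D1:**
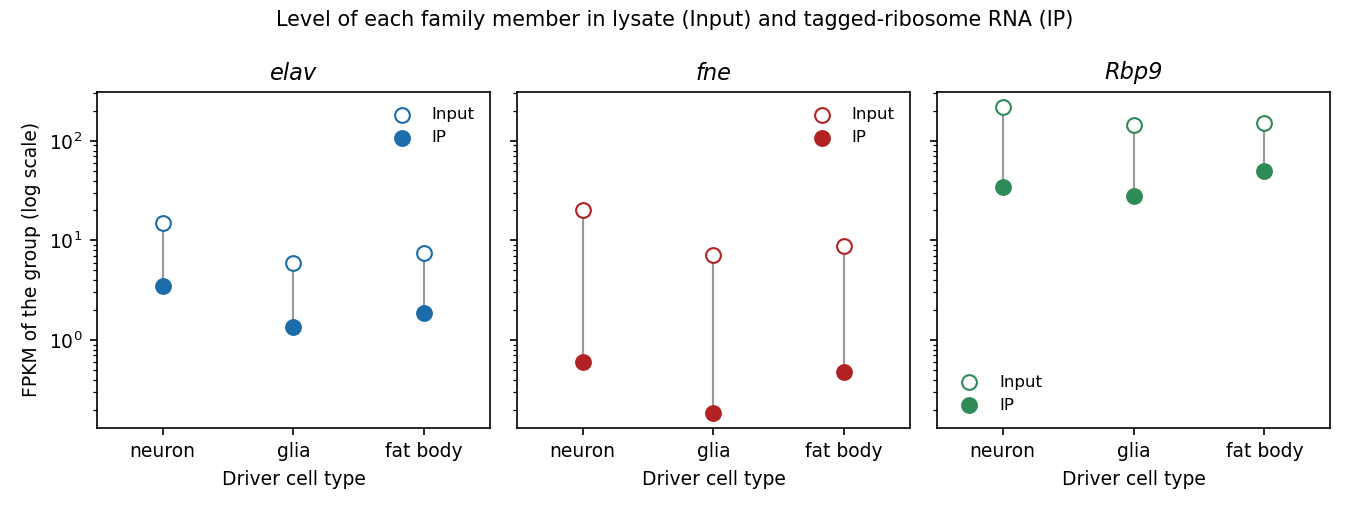
FPKM (log scale) of elav, fne and Rbp9 by driver cell type, 1 panel per gene, with the Input as an open circle and the IP as a filled circle joined by a line; each point is the authors' value of a group. All 9 IP points lie below their Input points, with the longest lines for fne (20.3 to 0.607 FPKM for neurons).

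The makeup of the family differed between the lysates and the IPs. Rbp9 took 86.0%, 91.8% and 90.2% of the FPKM summed over the 3 genes in the Inputs, and 89.4%, 94.8% and 95.5% in the IPs. Its level was 14.5, 24.4 and 19.9 times that of elav in the Inputs and 9.90, 20.5 and 26.4 times in the IPs. Between the other two members the order turned round. fne exceeded elav in every Input, by 1.35, 1.19 and 1.17 times, and stood at 0.175, 0.137 and 0.253 of the elav level in the IPs. As a share of the family, fne went from 8.02% in the neuron Input to 1.58% in the neuron IP, whereas elav went from 5.93% to 9.03%. These shares rest on values of the same group, so they do not depend on how the columns were scaled to one another. The fne levels in the IPs were all under 1 FPKM, and the counts behind them are unknown.

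**Figure D2:**
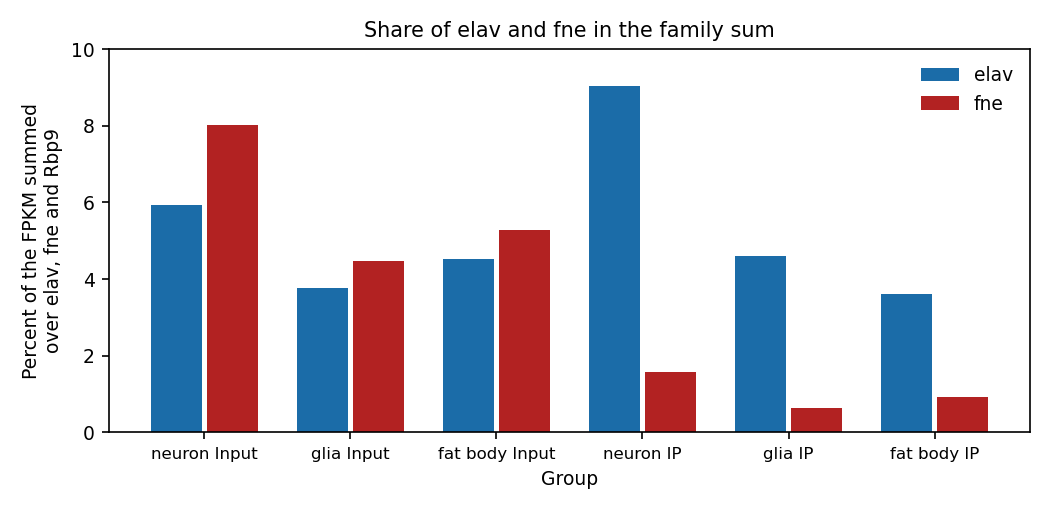
Percent of the FPKM summed over elav, fne and Rbp9 that belonged to elav (blue) and fne (red) in each of the 6 groups; the rest is Rbp9. fne exceeds elav in the 3 Inputs (8.02% against 5.93% for neurons) and lies below it in the 3 IPs (1.58% against 9.03%).

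Each IP was set against its own Input to see whether the level of the family in the IP matched that in the lysate. All 3 members were at least 2-fold lower in the IP with all 3 drivers, neurons included. The log2 ratio of IP to Input (each FPKM plus 1) was -1.84, -1.56 and -1.57 for elav. In FPKM without the added 1, the elav IP held 23.1%, 22.7% and 24.9% of the Input, nearly the same share with each driver. fne had the lowest log2 ratios of the family at -3.73, -2.77 and -2.73, with an IP of 2.99%, 2.63% and 5.40% of its Input. For Rbp9 the log2 ratios were -2.63, -2.34 and -1.58, and the IP held 15.8%, 19.1% and 33.0% of the Input. On the deposited scale the share, taken without the added 1 for all members, was flat across drivers for elav and highest in the fat body for Rbp9. With columns scaled to equal totals outside the ribosomal protein genes (total scaling) this pattern was lost. The log2 ratios of FPKM plus 1 were then -2.36, -2.20 and -2.63 for elav and -3.20, -3.09 and -3.04 for Rbp9.

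Among all genes above 0 on both sides, 13.1%, 19.7% and 10.2% were at least 2-fold lower in the IP and 19%, 18.7% and 27.5% at least 2-fold higher, with median log2 ratios of -0.00, 0.05 and 0.10. Counted from the lowest ratio, fne came 13th of 11119 genes with the neuron driver, 34th of 11116 with the glia driver and 21st of 11117 with the fat body driver. Rbp9 came 96th, 136th and 401st, and elav 392nd, 739th and 409th. Scaling moved the values but not the side on which they lay. When columns were scaled to one another by the median gene among the 5599 that reached 5 FPKM in all groups (median scaling), log2 ratios shifted by -0.50, -0.45 and -0.77. Under total scaling they shifted by -0.56, -0.72 and -1.43. The 9 values of the family then ran from -1.97 to -4.04 and from -2.20 to -4.20. Over all genes the neuron split was 1457 lower and 2111 higher, against 2550 and 864 by median and 2801 and 788 by total scaling. The glia split was 2188 lower and 2075 higher, against 3379 and 1103, then 4093 and 798. The fat body split was 1133 lower and 3056 higher, against 2706 and 1230, then 4835 and 467.

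Transcript length moved with these ratios across all genes. Of the genes analysed, 10825 (96.8%) had an annotated length, and the median log2 IP/Input in neurons was 0.33 for the 3618 genes whose longest transcript measured 1 to 2 kb. It was -0.77 for the 652 genes of 5 to 7 kb, the class of Rbp9, and -1.28 for the 343 genes of 7 to 11 kb, the class of elav and fne. In that last class 63.8%, 56.9% and 60.9% of genes were at least 2-fold lower in the IP. Set against its own length class, elav was not extreme, with 26.8%, 27.7% and 26.8% of the genes having a lower ratio. fne lay near the bottom of the same class, with 0.583%, 2.04% and 1.75% of genes lower. Rbp9 lay below most genes of its class in neurons and glia, with 3.07% and 3.83% lower, and less far down in the fat body with 14.1%. Its longest transcript of 6976 nt lies just under the 7 kb edge, so its place depends on that edge. The lower quartile of the 7 to 11 kb class was -1.89, -1.60 and -1.60. Rbp9, at -2.63, -2.34 and -1.58, lay below it in neurons and glia and about at it in the fat body. The part of length in the family's values was not tested, and the length classes were chosen with the values known.

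**Figure D3:**
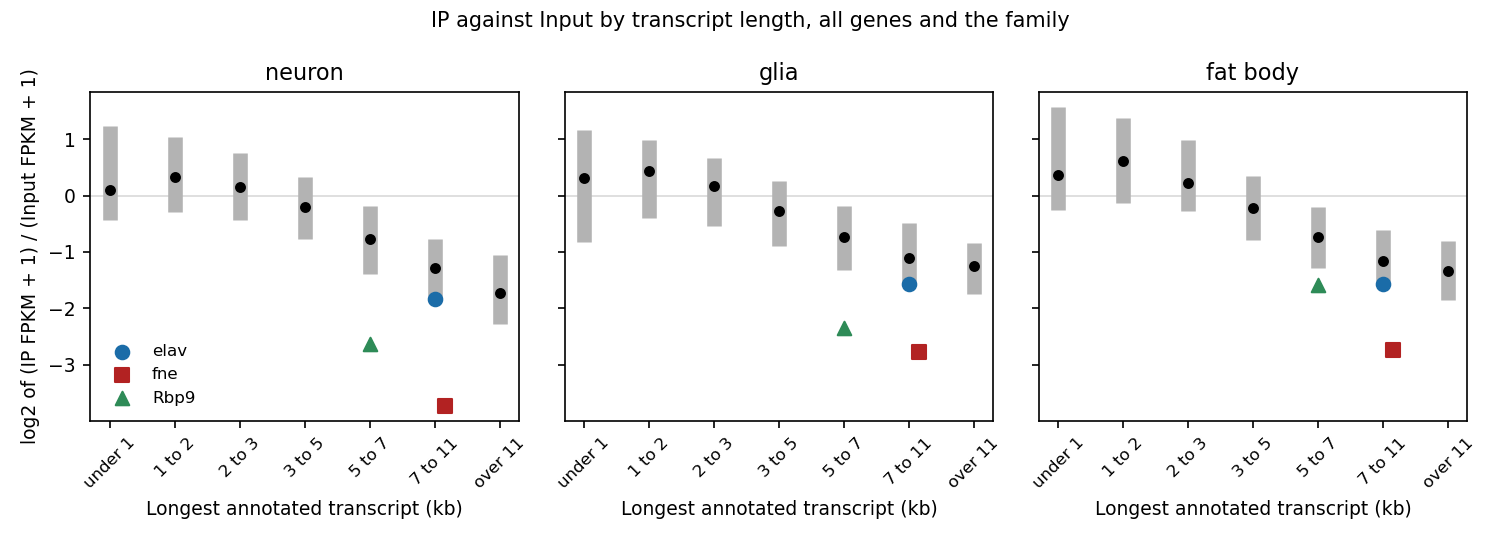
log2 IP/Input (FPKM plus 1) by length of the longest annotated transcript in kb, 1 panel per cell type; black points are medians over all genes of a length class, grey bars run from the lower to the upper quartile, and coloured symbols are the family. From 1 to 2 kb upwards medians are lower in each longer class (0.33 at 1 to 2 kb and -1.28 at 7 to 11 kb in neurons), while the class under 1 kb lies below that of 1 to 2 kb (0.10 in neurons); elav lies at the lower end of the grey bar of its class, and fne far below it.

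The IPs were compared with one another to ask in which of them the family had the higher level. Such a level does not measure the share of a transcript that is on ribosomes. Neuron markers in sum kept 14.4% and 20.5% of their Input FPKM in the glia and fat body IPs. How much RNA of untagged cells an IP held was not tested. Over all genes, 15.5% were called higher and 15.3% lower (30.8% in all) in the neuron than in the glia IP, by q under 0.05 in the authors' deposited table. For the neuron against the fat body IP it was 9.32% higher and 11.9% lower (21.3% in all) by the q of that pair in the authors' deposited table. elav had 2.56 times the FPKM of the glia IP in the neuron IP and 1.84 times that of the fat body IP, with q of 0.320 and 0.582 in the authors' deposited table. The neuron IP level of fne was 3.26 times that of the glia IP and 1.28 times that of the fat body IP, with q of 0.464 and 0.935 in the authors' deposited table. Rbp9 had 1.23 times as much FPKM in the neuron IP as in the glia IP and 0.693 times as much as in the fat body IP, with q of 0.806 and 0.585 in the authors' deposited table. So 0 of 3 members were called in either comparison with the neuron IP, which does not show that the levels were alike.

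Between the glia and the fat body IP, 2 of 3 members were called, both lower in glia, where 31.6% of all genes were called lower and 12.9% higher (44.5% in all). Rbp9, at 27.9 FPKM with the glia driver and 49.7 with the fat body driver, had a log2 difference of -0.81 and q = 1.51e-05 in the authors' deposited table. fne, at 0.186 and 0.476 FPKM, had a log2 difference of -0.31 and q = 0.00788 in the authors' deposited table. elav, at 1.36 and 1.88 FPKM, was not called (log2 -0.29, q = 0.329 in the authors' deposited table). The log2 sizes depended on scale, being -0.39 for Rbp9 and -0.19 for fne by median scaling. They were -0.04 and -0.10 by total scaling, where the value of elav changed sign to 0.17. The fne value also depended on the pseudocount, being -1.01 with 0.1, -1.35 with none and -0.08 with 5. Over all genes called in this pair, total scaling moved the split from 3538 lower and 1443 higher to 2522 and 2459. Neuron markers lay on the same side as the family, with 20 of 20 lower in the glia than in the fat body IP, 12 of them at q under 0.05 in the authors' deposited table. Their median log2 difference of -0.58 lay within the shift of 0.76 that total scaling brings to this pair. Their part in the result was not tested, and in such bulk RNA fewer cells of a type and less RNA per cell cannot be told apart.

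The 3 Inputs, which all sampled heads, were compared to see whether the lysates held the family equally, with no test, since each has 1 value. In the neuron Input elav had 2.52 times the FPKM of the glia Input and fne 2.87 times, both at least 2-fold higher on the log2 scale of FPKM plus 1 (1.20 and 1.40), while Rbp9 had 1.50 times (0.58). Of all genes 0.988% were at least 2-fold higher in that direction and 10.2% lower (110 and 1140 genes, against 59 and 1424 by median scaling), and 99.5% and 99.7% of genes had a lower ratio than elav and fne. Against the fat body Input the neuron Input had 1.99 times the elav level (0.91), 2.31 times the fne level (1.12) and 1.45 times the Rbp9 level (0.53). fne was thus at least 2-fold higher in that pair, as were 0.521% of all genes, with 0.422% lower. Between the glia and fat body Inputs the log2 differences were -0.30, -0.28 and -0.05 for elav, fne and Rbp9, and none reached 2-fold, as 0.332% of all genes did in that direction and 8% in the other. Median scaling shifted the first 2 pairs by -0.24 and -0.14, which took elav between neuron and glia to 0.9985 and fne between neuron and fat body to 0.99, both just short of 2-fold. In the pair of neuron and fat body Inputs the split over all genes was 58 higher and 47 lower, against 42 and 61 by median and 43 and 67 by total scaling.

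Other neuronal genes were higher in the neuron lysate too. All 20 neuron markers had more FPKM in the neuron than in the glia Input, with a median log2 of 0.89, 4 of them at least 2-fold. Their summed level was 2376, 1329 and 1609 FPKM in the Inputs. The 20 other neuronal RNA-binding protein genes were likewise all higher on the deposited scale, with a median of 0.91 and 6 at least 2-fold, beside a median of 0.23 over all genes. The lowest of them, CG17838 at 0.07 and orb2 at 0.12, lay within the shift of -0.24 that median scaling brings. The part of these genes in the family's values was not tested.

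To set each IP against its own lysate, the log2 IP/Input ratios were also subtracted from one another. The ratio in neurons minus that in glia was -0.28 for elav, -0.96 for fne and -0.28 for Rbp9, against a median of 0.17 over all genes. For elav and fne the sign came with the pseudocount, their values being -0.02 and -0.20 with a pseudocount of 0.1 and 0.02 and 0.18 with none, whereas Rbp9 stayed at -0.28 in both. None of the 3 reached 2-fold, as 16.2% of all genes did in that direction and 13.5% in the other. For neurons minus fat body the values were -0.27, -0.996 and -1.05, so that Rbp9 alone passed 2-fold, beside 18.4% of all genes lower and 9.77% higher. It no longer did so under median scaling (-0.77) or total scaling (-0.16), and the value of elav changed sign to 0.27 under total scaling. For glia minus fat body they were 0.00, -0.04 and -0.76, and none passed 2-fold, beside 15.3% of all genes lower and 9.97% higher. With no pseudocount fne came to -1.04 there, and elav to -0.13. These splits moved with scale as well. Neurons minus glia went from 1501 higher and 1803 lower to 2087 and 1569 under total scaling. Neurons minus fat body went from 1085 higher and 2047 lower to 1418 and 1589 by median and 3078 and 952 by total scaling. Glia minus fat body went from 1107 higher and 1701 lower to 1389 and 1105, then 1894 and 730.

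Many neuron markers lay higher in the same subtraction, with 15 of 20 positive for neurons minus glia on the deposited scale and a pseudocount of 1. Their median was 0.59, with 7 at least 2-fold higher and 1 at least 2-fold lower. Gad1, the enzyme that makes GABA, was the highest of the list at 3.10, and Rab3, a synaptic vesicle GTPase, stood at 2.43. n-syb, the neuronal synaptobrevin, went from 396 FPKM in the neuron Input to 332 in the IP (log2 -0.25), with log2 IP/Input of -2.60 in glia and -2.004 in the fat body. Other markers were negative, among them the potassium channel gene Sh at -0.49 and para at -0.97. For Sh, para and cac that sign came with the pseudocount. Without one, the Sh IP held 6.61% of its Input FPKM in neurons and 4.85% in glia. The same shares were 7.68% and 5.73% for para and 4.35% and 2.99% for cac. Syx1A (3.49% and 9.03%) and CadN (6.49% and 9.04%) stayed negative. As sums, the neuron markers kept 57.8%, 14.4% and 20.5% of their Input FPKM in the IPs, and the elav family 15.2%, 18.5% and 31.2%, a sum that is mostly Rbp9. The marker shares differed by length, at 92.1%, 18.2% and 24.2% for the 8 markers with a longest transcript under 5 kb and 17.9%, 9.35% and 15.8% for the 12 longer ones. All 3 members of the family belong to the longer class.

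**Figure D4:**
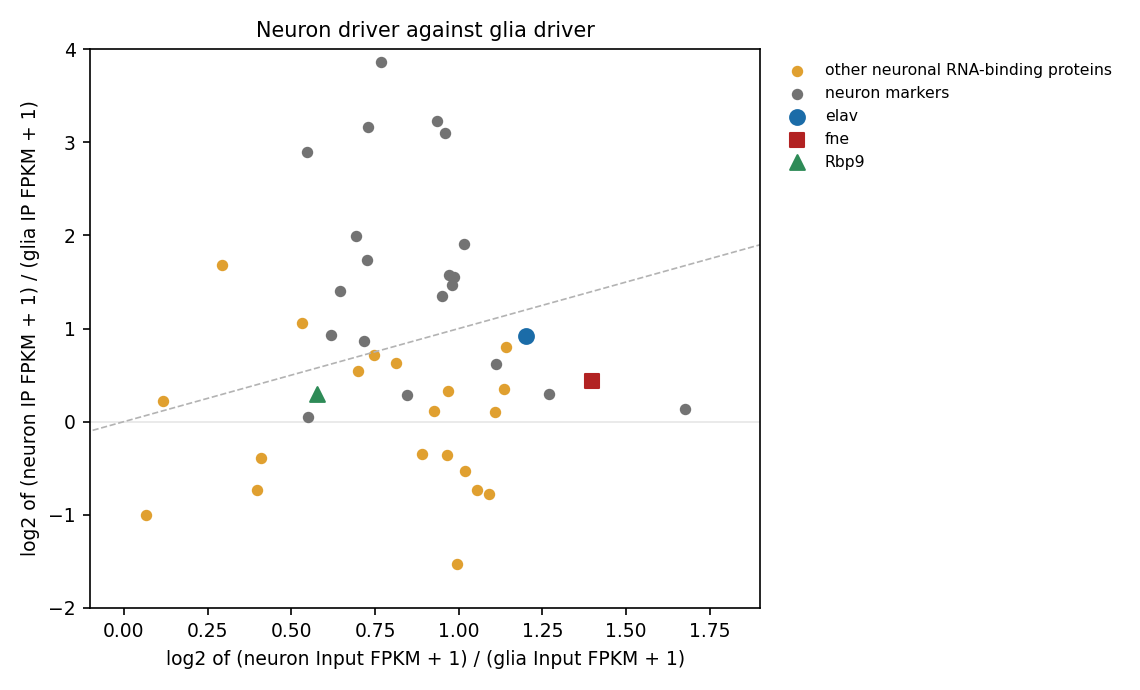
log2 ratio of the neuron to the glia Input (horizontal) and of the neuron to the glia IP (vertical), FPKM plus 1, for the family, 20 neuron markers and 20 other neuronal RNA-binding protein genes; the dashed line marks equal ratios. On this scale the family lies below the dashed line (elav 1.20 and 0.92, fne 1.40 and 0.44, Rbp9 0.58 and 0.29). So do 17 of the RNA-binding protein genes, while 15 of the 20 neuron markers lie above it. With no pseudocount elav (1.33 and 1.36) and fne (1.52 and 1.70) lie above the line, as do the markers Sh, para and cac.

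Other RNA-binding protein genes of neurons resembled the family in the IPs. Of 20 such genes 18, 14 and 16 were at least 2-fold lower in the IP, with median log2 ratios of -2.43, -1.57 and -1.95. ps, which encodes the splicing regulator pasilla, went from 46.9 to 2.77 FPKM in neurons (log2 -3.67), and CG17838, the syncrip homologue, from 18.8 to 0.736 (-3.51). TBPH, the fly TDP-43, was the 1 gene at least 2-fold higher, at 32.6 FPKM in the neuron Input and 85.7 in the IP (1.37, under 2-fold with either scaling). These genes differed in length as well. The 15 with a longest transcript of 5 kb and over were all at least 2-fold lower in the neuron IP, whereas the 4 shorter ones, TBPH, Fmr1 and bru-2 among them, ranged from -1.68 to 1.37, and 1 gene had no length. Neuron markers split in the same way, with 12 of 12 long genes at least 2-fold lower in the neuron IP and 2 of 8 shorter ones. With the glia and fat body drivers all 8 shorter neuron markers were at least 2-fold lower in the IP. The closest relatives outside the family by their RNA recognition motifs differed from each other. Sxl, the sex determination switch, went from 18.7 to 2.12 FPKM in neurons (log2 -2.66), and CG3056, the sister-of-Sex-lethal gene ssx, from 25.7 to 25.9 (0.01).

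Transcripts whose splicing or polyadenylation the family is known to direct were mostly lower in the IPs too. Of 12 such genes, fne itself among them and 4 (Adar, Imp, pum and shep) shared with the previous list, 10 were at least 2-fold lower in the neuron IP and 1 higher. In the glia and fat body IPs 7 and 8 were lower, and the 3 medians were -1.91, -1.24 and -1.32. AGO1, the microRNA effector, went from 36.0 to 3.20 FPKM in neurons (log2 -3.14), and shep, an RNA-binding protein gene, from 33.7 to 2.08 (-3.49). arm, the fly β-catenin and a splicing target of ELAV, went the other way, from 114 to 348 FPKM (1.61). Its IP level was 125 FPKM with the glia driver and 93.5 with the fat body driver, and it was higher in neurons than in either, with q = 0.000545 and q = 1.98e-06 in the authors' deposited table. ewg, an ELAV splicing target that encodes a transcription factor, had 17.1 FPKM in the neuron Input and 21.8 in the IP (0.34). arm and ewg were the members of this list with a longest transcript under 5 kb.

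**Figure D5:**
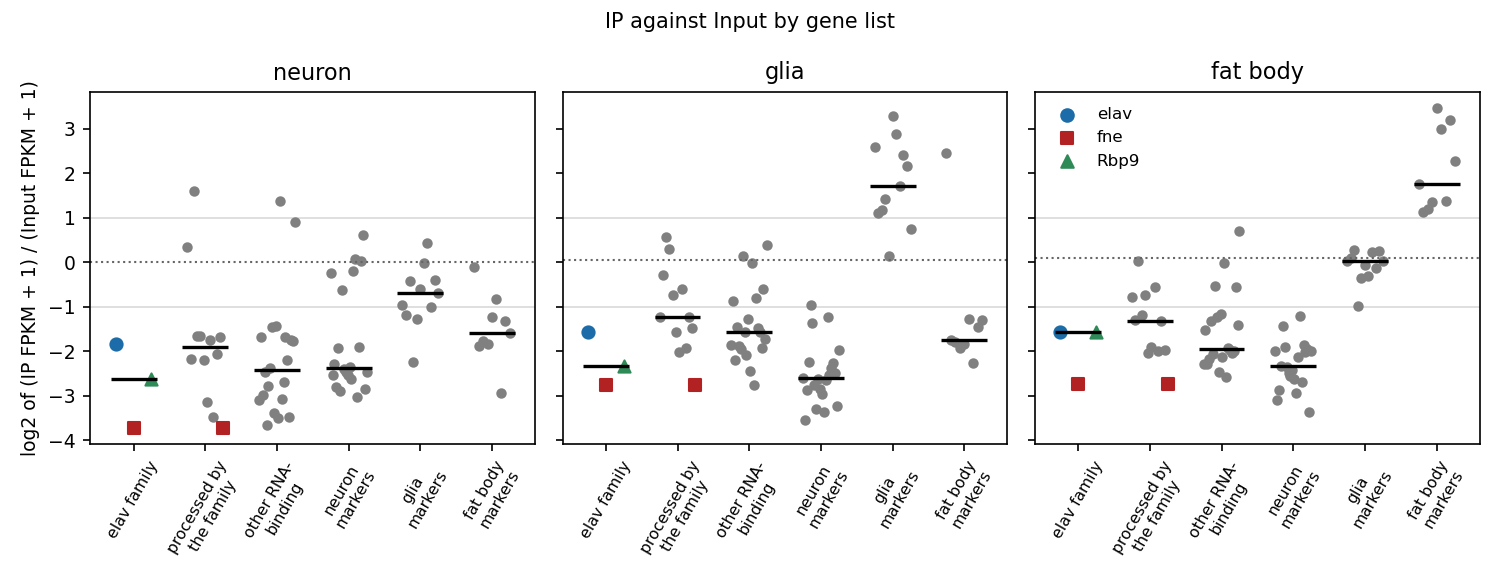
log2 IP/Input (FPKM plus 1) of every measured gene in 6 lists, 1 panel per cell type; black bars are list medians, the dotted line is the median of all genes, light lines mark 2-fold, and coloured symbols are elav, fne and Rbp9 (fne also stands in the list of processed transcripts). The family and the other RNA-binding proteins lie low in all 3 panels (medians -2.63 and -2.43 in neurons), while glia markers lie above 0 in the glia panel (median 1.71), as do fat body markers in the fat body panel (1.75); neuron markers have a median of -2.38 in the neuron panel.

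The genes most like each member over the 6 groups were found by the distance between log2 profiles, each centred on its own mean, among 4227 other named genes with at least 5 FPKM in some group. Those closest to elav were CaMKII, a calcium/calmodulin-dependent kinase gene, at a distance of 0.19, Sur-8 (0.37), glec (0.40), Frq2, a calcium sensor (0.43), and Pur-alpha (0.43). CaMKII had 88.8, 42.02 and 55.0 FPKM in the Inputs and 27.6, 13.4 and 17.8 in the IPs, so that its log2 IP/Input was -1.65, -1.58 and -1.57. Closest to fne were mbl, the splicing regulator muscleblind (0.47), SK, a calcium-activated potassium channel gene (0.56), snoRNA:Psi28S-1192a (0.61), which is listed at 0 in all 3 IPs, Sh (0.63) and the RNA-binding protein gene Unr (0.64). Rbp9 was closest to NfI, a transcription factor gene (0.31), mask (0.33), the Mediator subunit gene MED26 (0.36), CycG (0.37) and bun (0.39). No member was among the 5 closest of another, with distances of 1.13 between elav and Rbp9, 1.33 between fne and Rbp9 and 1.79 between elav and fne. Counted from the nearest of the 4227 genes, Rbp9 came 70th and elav 155th from fne. From Rbp9, elav came 216th and fne 305th, and from elav, Rbp9 came 327th and fne 888th. With a pseudocount of 0.1 the 5 closest genes kept 1 name for elav (CaMKII), 2 for fne (SK and Sh) and 2 for Rbp9 (CycG and bun), and by Pearson correlation 1, 0 and 0, so that few of these names are stable.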

How the data were processed

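The submitters' processing notes name TopHat2 2.0.6, Cufflinks 2.0.2, Cuffdiff 2.0.2 and the BDGP5 build. The authors deposited 1 table with FPKM for each of 6 groups, both replicates combined, and a q-value for each pair of IPs. How replicates were combined, how libraries were scaled and which annotation was used is not given in the sources used here. There are no counts, so depth and its precision are unknown. Fits per library could not be made.

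Ratios are log2 of FPKM plus a pseudocount of 1, over the 11181 genes that reached 1 FPKM in a group. Genes counted as called if they differed at least 2-fold, unless either group was listed at 0, and between IPs if the authors' q was under 0.05, with the direction read from FPKM. Transcript lengths came from Ensembl release 115 on a later build, by gene identifier for 10574 genes and otherwise by identical symbol. Coordinates of that build also gave the positions and overlaps of the 3 members, and none were matched to the build behind the values. Calculations used Python 3.11.15, numpy 2.4.6, pandas 2.3.3 and matplotlib 3.10.9, and were tested on simulated data.

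The members, the gene lists and the tests were chosen with earlier results of these data known. Lists were written from general knowledge. Of 12 glia markers 11 reached 1 FPKM, and of 12 fat body markers 11 were matched and 9 reached it. Each list contributed 2 names by highest mean FPKM and 2 by size of the neuron IP/Input change, of which the text uses a selection, and each member its 5 nearest genes. Gad1, Rab3, para, cac, CadN, ewg, Fmr1, bru-2 and orb2 were named after their values were seen.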

Additional observations from a re-analysis of the deposited data

How the results depend on the processing

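All 9 log2 IP/Input values of the family stayed negative under median scaling, total scaling and pseudocounts of 0.1 and 5, and all stayed past 2-fold except elav with a pseudocount of 5 in glia (-0.79) and the fat body (-0.87). Of the 9 differences between Inputs, 3 were at least 2-fold, against 1 under median scaling and 1 with a pseudocount of 5. Of the 9 subtractions of 1 log2 IP/Input from another, 1 was at least 2-fold, against 0 under median scaling, 0 under total scaling, 0 with a pseudocount of 5 and 2 with no pseudocount (chosen after seeing the data), where fne in glia minus fat body joined Rbp9. A larger pseudocount by construction draws low genes towards 0. Both calls between the glia and fat body IPs held at a q threshold of 0.01. The difference of Rbp9 between the neuron and fat body IPs, not called, changed sign under total scaling (0.20). With genes of at least 5 FPKM in a group, those at least 2-fold lower in the neuron than in the glia Input went from 1140 to 562. Glia markers at least 2-fold higher in the glia IP went from 9 to 5 under total scaling, and fat body markers in the fat body IP from 9 to 4 under median and 3 under total scaling. No paired analysis was possible because the table holds 1 value per group, and for the same reason no replicate could be left out. The depth behind fne in the IPs, under 1 FPKM throughout, is unknown.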
